A study of Mus musculus with 8 samples.

Results

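The genes described here are 29 genes of neurogenesis and of the Notch, BMP and Wnt signals that act on neural stem cells, out of 22869 gene symbols in the count table. They were picked by name, with earlier results of these data known but with no measured value in the rule, and each is represented by its transcript row with the highest mean count. All 29 were found and all 29 passed the low-count filter of the test. By role they are 6 genes of neural progenitors (Sox2, Pax6, Nr2e1, Nes, Eomes, Neurog2), 9 genes of differentiating neurons (Sox4, Sox11, Dcx, Neurod1, Neurod2, Neurod6, Prox1, Nr2f1, Nr2f2), 7 Notch genes (Dll1, Jag1, Notch1, Notch2, Hes1, Hes5, Hey1), 5 BMP and Id genes (Bmp4, Id1 to Id4) and 2 Wnt ligands (Wnt7a, Wnt7b).

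RNA was sequenced from the cortex of mice of strain C57BL/6 and genotype APP/PS1, a transgenic model that forms amyloid plaques, and both groups carried this genotype. The bexarotene group had 4 libraries and the vehicle group 4 libraries, the latter labelled with glycerol at 0.2 mg/kg. Bexarotene is a drug that activates retinoid X receptors. The sources used here do not give its dose, the length of treatment, the age of the mice, the promoter of the transgenes or the number of animals per library. The p-values therefore describe the spread among 8 libraries, which may be technical in part.

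Neurogenesis runs from Sox2-positive stem cells through committed progenitors to immature neurons that express doublecortin. In adult mammals it is limited to a few niches, mainly the dentate gyrus and the wall of the lateral ventricles, and in the rest of the brain many of the same genes are used by mature cells such as astrocytes, blood vessels and cortical neurons. Notch ligands on one cell trigger the cleavage of Notch receptors on its neighbour, the freed receptor fragment joins the DNA-binding protein RBPJ, and the Hes and Hey repressors made in response hold back proneural factors. BMP signals act in part through the Id proteins, which bind proneural helix-loop-helix proteins and keep them off DNA.

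Several libraries stood apart from the rest, and some markers of other cell types differed between the treatment groups. Summed over table rows, libraries held 42413825 to 76542067 counts. The first principal component of log2 CPM (counts relative to library size after TMM scaling) held 45.3% of the variance and placed replicates 1 and 3 of both groups below zero and replicates 2 and 4 above. Vehicle replicate 3 lay between the sets, with a score of -4.6 against -19.8 to -24.1 for the other libraries below zero. The summed level of 12 striatum markers was 1393 CPM in bexarotene replicate 1, 1026 CPM in bexarotene replicate 3 and 750 CPM in vehicle replicate 1, against 278 to 391 CPM in the other 5 libraries. All 12 had a positive log2 fold change between the treatment groups. Genes of cortical excitatory neurons were present throughout: Slc17a7, their vesicular glutamate transporter, was at 960.2 to 1510 CPM and Tbr1, a factor of deep-layer neurons, at 54.5 to 149.5 CPM. The 4 Y-linked genes summed to 9.81 to 88.5 CPM in the bexarotene libraries, all of which also held at least 84.7 CPM of Xist, while no vehicle library held more than 1 CPM of both. In vehicle, replicates 2 and 4 had 134 and 141 CPM of the Y-linked genes and under 1 CPM of Xist, while replicates 1 and 3 had at most 0.282 CPM of the former and at least 248 CPM of the latter. The 10 choroid plexus markers summed to 1930 CPM in bexarotene replicate 2 and to 103 to 445 CPM in the other 7 libraries, and all 10 had a positive log2 fold change. The 14 microglia markers summed to 794 to 1073 CPM with bexarotene and 619 to 765 CPM with vehicle, without overlap. All 14 had a positive log2 fold change, as did 50.2% of all genes. In edgeR 0 of the 14 passed the adjusted threshold, against 0.00622% of all genes, and 10 had an unadjusted p below 0.05, against 8.77%. Their part in the values of the members was not tested. Differences within replicates 1 and 3 and within replicates 2 and 4 are therefore given beside the comparison of all 8 libraries. In such bulk RNA, fewer cells of a type and less RNA per cell cannot be told apart.

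**Figure D1:**
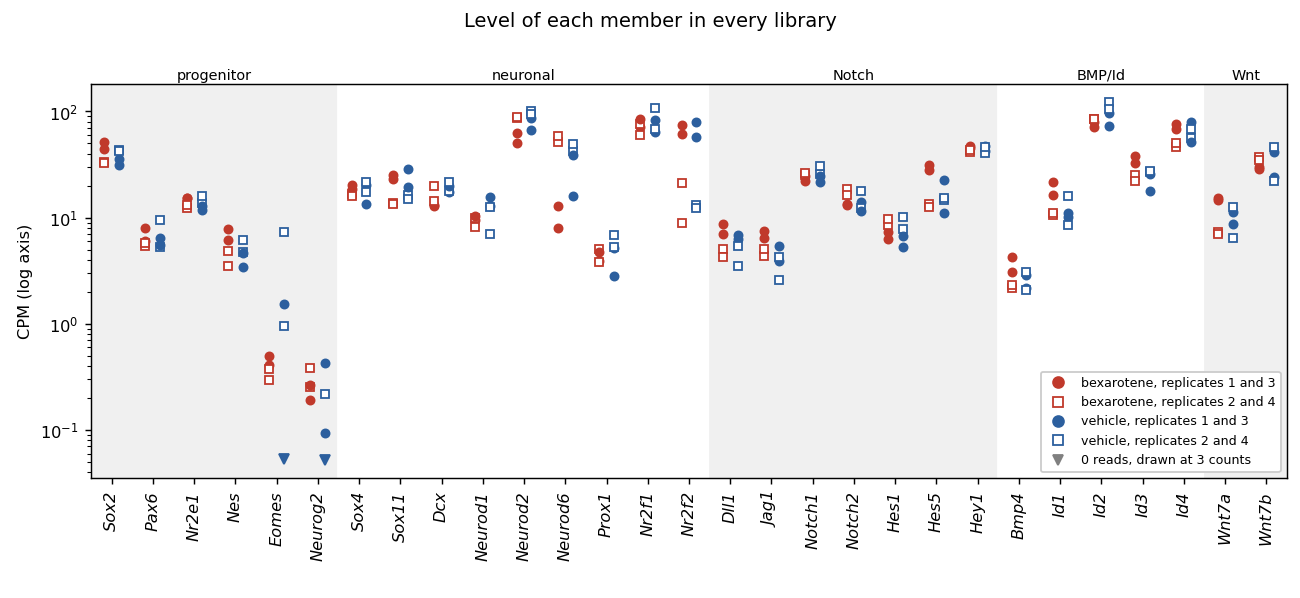
Level of the 29 genes in CPM on a log axis, with 1 point per library, bexarotene in red and vehicle in blue, replicates 1 and 3 as filled circles and replicates 2 and 4 as open squares. The red and blue points overlap for every gene, and Eomes, Nr2f2, Neurog2 and Neurod6 have the widest spread within groups on the log2 scale.

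For none of the 29 members did the difference between bexarotene and vehicle pass the test. In edgeR's quasi-likelihood test, with Benjamini-Hochberg adjustment over all rows tested, 0 of 29 passed an adjusted p of 0.05 in either direction, against 0.00622% of the 16069 genes tested. DESeq2 called 0 of 29 as well, with 8 members given no adjusted p, against 0.604% of all genes, of which 5613 were given none. At an unadjusted p below 0.05 there was 1 member, Dcx, which was lower, against 8.77% of all genes (4.88% higher and 3.89% lower). The bexarotene and vehicle libraries separated without overlap for 0 of 29 members and for 5.77% of all genes (3.61% higher and 2.16% lower). The log2 fold change, bexarotene minus vehicle, was positive for 14 members (50.2% of all genes) and negative for 15. Its median was -0.0024 over the members and 0.00092 over all genes.

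**Figure D2:**
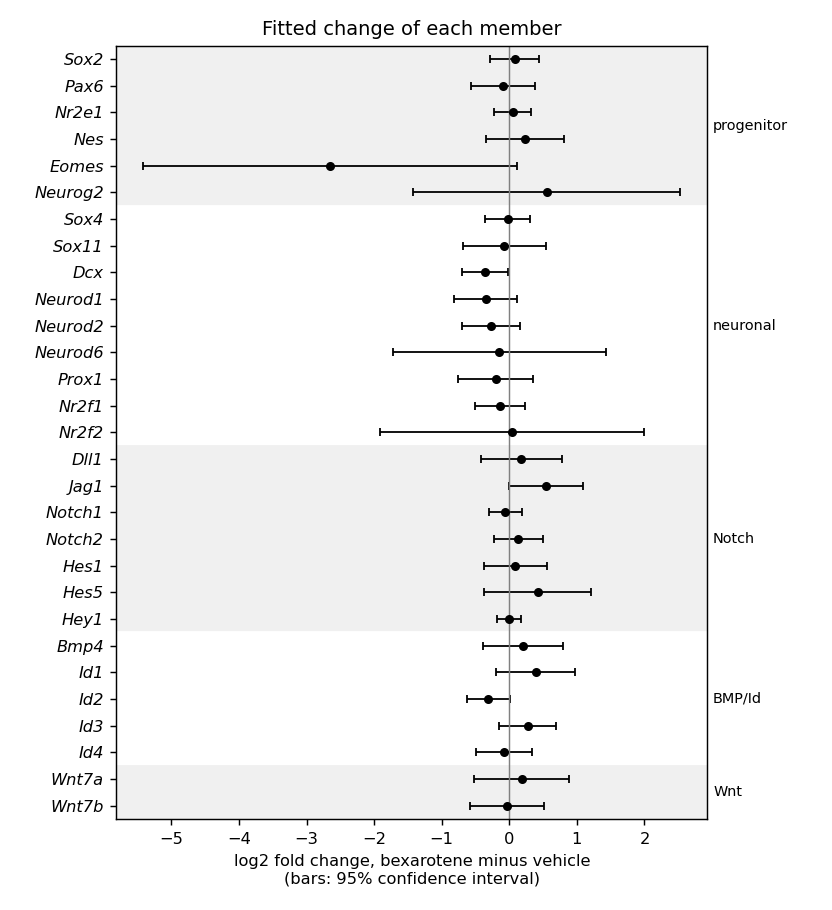
Log2 fold change of each member, bexarotene minus vehicle, with its 95% confidence interval from edgeR's fit, grouped by role. The interval of Hey1 is the narrowest, from -0.18 to 0.18, and those of Eomes, Neurog2, Nr2f2 and Neurod6 are the widest.

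Levels per length of transcript differed widely among the members, with genes of different roles at both ends. Averaged over the 8 libraries, Id2 was the highest member at 70.9 CPM per kilobase of transcript, followed by Neurod2 at 25.4, Nr2f1 at 24.1, Id3 at 21.2, Sox2 at 19.1 and Hey1 at 18.2. The lowest were Neurog2 at 0.103, Eomes at 0.499, Prox1 at 0.595, Nes at 0.845 and Jag1 at 0.881 CPM per kilobase. These lengths come from GENCODE M21 transcripts matched by accession, not from the annotation used for counting.

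Sox2, the transcription factor that maintains neural stem cells and is also made by astrocytes, was at 51.3, 33.4, 44.3 and 32.5 CPM in bexarotene replicates 1 to 4. In vehicle replicates 1 to 4 it was at 31.5, 43.4, 35.5 and 42.4 CPM. The groups overlapped in part, with bexarotene replicates 1 and 3 above all vehicle libraries and vehicle replicate 1 below all bexarotene libraries, and had means of 40.4 ± 9.02 and 38.2 ± 5.70 CPM (SD, n = 4). On the log2 scale the difference came to 0.08 ± 0.16 (SE; adjusted p 0.936 in edgeR). The order of the libraries depended on the replicate: within replicates 1 and 3 both bexarotene libraries lay above both vehicle libraries, by 0.51 on the log2 scale, and within replicates 2 and 4 both lay below, with a difference of -0.38.

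Nr2e1 (also called Tlx), a nuclear receptor that keeps adult neural stem cells dividing, followed the same order at lower amplitude. Levels were 15.4, 12.3, 15.2 and 13.1 CPM in bexarotene replicates 1 to 4 and 11.9, 13.7, 12.8 and 15.9 CPM in vehicle replicates 1 to 4. Replicates 1 and 3 gave a log2 difference of 0.32 and replicates 2 and 4 one of -0.21, and over all libraries the log2 fold change was 0.05 ± 0.12 (SE; adjusted p 0.949 in edgeR).

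Nes, which encodes the intermediate filament nestin of progenitors and growing vessels, ranged from 3.53 to 7.84 CPM under bexarotene and from 3.41 to 6.18 CPM under vehicle. Replicates 1 and 3 differed by 0.79 and replicates 2 and 4 by -0.38 on the log2 scale. Pax6, a patterning factor of the forebrain, was at 6.32 ± 1.16 and 6.72 ± 1.97 CPM (SD, n = 4), with vehicle replicate 4 highest at 9.60 CPM. Neither differed beyond the spread between libraries: the adjusted p in edgeR was 0.862 for Nes and 0.945 for Pax6.

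Eomes (also called Tbr2), which marks intermediate progenitors of the cortex and some mature neurons of the olfactory bulb, was well above the rest in 1 library. Levels were 0.495, 0.296, 0.409 and 0.374 CPM in bexarotene replicates 1 to 4. In vehicle replicates 1 to 4 it was at 1.55, 0.947, 0 and 7.37 CPM, where 0 counts in replicate 3 allow up to 0.0538 CPM (3 counts, counting error only). The vehicle libraries thus held both the lowest and the highest value of the series. Vehicle replicates 1, 2 and 4 lay above all 4 bexarotene libraries. The log2 fold change was -2.65 ± 1.21 (SE; adjusted p 0.594 in edgeR). Without vehicle replicate 4 it was -1.07 (adjusted p 0.835 in edgeR), and without vehicle replicate 3 it was -3.06 ± 0.67 (SE; adjusted p 0.463 in edgeR). With the replicate number as a block it was -1.50. Sp8, a factor of olfactory bulb interneurons, was picked here after its values were seen. It was at 10.2 CPM in vehicle replicate 4, against 1.51 to 3.01 CPM in the other 7 libraries. Markers of the olfactory bulb were not summed, and the part of the tissue sampled in these values was not tested.

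Neurog2, a proneural factor of excitatory lineages, was at the edge of detection. It had 0.191 to 0.387 CPM with bexarotene and 0 to 0.430 CPM with vehicle, and 0 counts in vehicle replicate 2 allow up to 0.0517 CPM (3 counts, counting error only). The 95% interval of its log2 fold change ran from -1.43 to 2.53, so a change in Neurog2 of either sign could not be told from none.

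Dcx, the microtubule-associated protein of migrating immature neurons, came nearest to the threshold among the genes of differentiating neurons. Levels were 12.8, 19.8, 13.1 and 14.3 CPM in bexarotene replicates 1 to 4 and 17.4, 17.7, 19.9 and 21.9 CPM in vehicle replicates 1 to 4. Bexarotene replicate 2 lay inside the vehicle range and the other 3 lay below it. Dcx had a log2 fold change of -0.36 ± 0.15 (SE; unadjusted p 0.0390 and adjusted p 0.562 in edgeR). By exact permutation, two-sided, p was 0.0857, where the smallest possible value is 0.0286. Replicates 1 and 3 differed by -0.52 and replicates 2 and 4 by -0.23 on the log2 scale.

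The proneural factors of the NeuroD family had negative fold changes that did not pass the test. Neurod2, which is kept on in mature excitatory neurons, was at 50.9, 87.6, 62.2 and 88.7 CPM in bexarotene replicates 1 to 4 and at 67.2, 100.2, 87.2 and 94.6 CPM in vehicle replicates 1 to 4. Its log2 fold change was -0.27 ± 0.19 (SE; adjusted p 0.751 in edgeR), and the lowest values were in bexarotene replicates 1 and 3 and vehicle replicate 1, the libraries with the highest summed striatum markers. Without bexarotene replicate 1 the log2 fold change of Neurod2 was -0.14, and without bexarotene replicate 4 it was -0.38. Neurod1, which acts in newborn granule neurons, averaged 9.43 ± 0.944 CPM with bexarotene against 12.03 ± 3.60 CPM with vehicle (SD, n = 4). Its 4 bexarotene values of 8.11 to 10.3 CPM lay inside the vehicle range of 7.04 to 15.6 CPM, and the adjusted p was 0.701 in edgeR.

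Neurod6, a marker of cortical and hippocampal excitatory neurons, divided the libraries sharply but not by treatment. Levels were 8.04 and 12.9 CPM in bexarotene replicates 1 and 3 and 51.5 and 59.3 CPM in bexarotene replicates 2 and 4. In vehicle replicates 1 to 4 it was at 15.9, 42.2, 39.2 and 48.9 CPM. The highest library was 7.37 times the lowest, and the 3 low libraries were the 3 with the highest summed striatum markers. Its log2 fold change was -0.15 ± 0.67 (SE; adjusted p 0.978 in edgeR), while replicates 1 and 3 differed by -1.30 and replicates 2 and 4 by 0.28.

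Nr2f2 (also called COUP-TFII), an orphan nuclear receptor of caudal forebrain, interneurons and veins, had the widest spread of the members found in every library. Levels were 61.8, 21.0, 73.98 and 8.87 CPM in bexarotene replicates 1 to 4 and 79.0, 13.1, 56.9 and 12.4 CPM in vehicle replicates 1 to 4. Replicates 1 and 3 of both groups were high and replicates 2 and 4 of both groups were low, a range of 8.90 times, and the spread within groups exceeded that of 98.96% of genes with a mean of at least 1 CPM. Within each pair of replicates the treatment groups were close, with log2 differences of 0.01 for replicates 1 and 3 and 0.10 for replicates 2 and 4. Vehicle replicate 3 was high in Nr2f2 although its summed striatum markers (374 CPM) were below those of the other 3 libraries high in Nr2f2. The part that the piece of tissue sampled has in this was not tested.

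**Figure D3:**
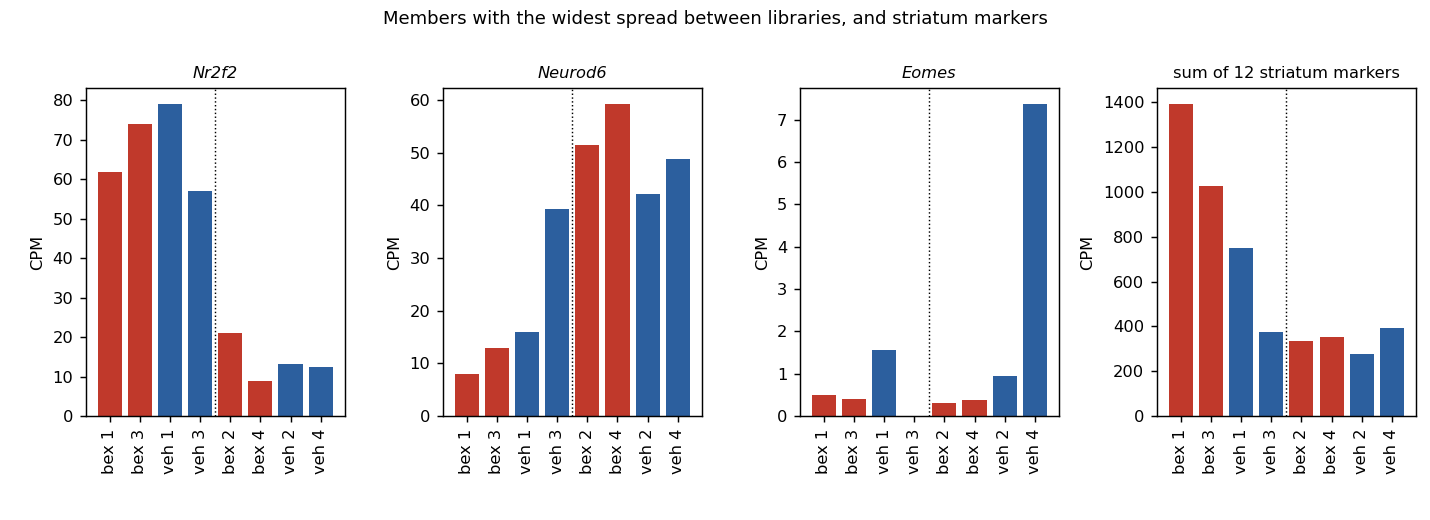
CPM of Nr2f2, Neurod6 and Eomes and the summed CPM of 12 striatum markers in each library, with bexarotene in red and vehicle in blue and a dotted line between replicates 1 and 3 and replicates 2 and 4. Nr2f2 is high left of the line in both groups, Neurod6 is low in 3 of those 4 libraries, and Eomes is highest in vehicle replicate 4.

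Nr2f1, the close relative of Nr2f2 that patterns cortical areas, did not share this pattern. It was at 60.6 to 84.98 CPM with bexarotene and 64.8 to 108 CPM with vehicle, a range of 1.78 times, and its log2 fold change was -0.14 ± 0.17 (SE; adjusted p 0.869 in edgeR). Sox11, a factor of immature neurons, was higher in replicates 1 and 3 (19.4 to 28.5 CPM) than in replicates 2 and 4 (13.4 to 16.2 CPM) of both groups, with group means of 18.8 ± 6.14 and 19.8 ± 6.09 CPM (SD, n = 4). Its relative Sox4 was at 17.95 ± 1.90 and 18.3 ± 3.72 CPM (SD, n = 4). Prox1, the fate factor of dentate granule cells, was at 4.39 ± 0.615 and 5.03 ± 1.67 CPM (SD, n = 4). The adjusted p in edgeR was 0.883 or more for each of Sox4, Sox11 and Prox1.

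Among the 9 genes of differentiating neurons 0 passed the test. A negative log2 fold change was found for 8 of them, against 8002 of the 16069 genes tested, and the median was -0.15. With an offset for transcript length and GC content, Sox4 and Sox11 turned positive. Within replicates 1 and 3, 5 of the 9 had a positive difference, and within replicates 2 and 4, 2 did. All 9 markers of cortical excitatory neurons in the table had a negative log2 fold change (median -0.21), and none was at 0 in any library. Their sum was 4181 to 5830 CPM with bexarotene and 4161 to 5674 CPM with vehicle, so the ranges overlapped. Their part in the values of the Neurod genes and Dcx was not tested. The 10 dentate gyrus markers, which include Prox1, summed to 231 to 261 CPM with bexarotene and 265 to 288 CPM with vehicle, without overlap. Most of this sum came from Calb1, Pdzd2 and Stxbp6. Of the 10 markers, 8 had a negative log2 fold change (median -0.11 over the list) and 0 passed the test. The part of this list in the values of the members was not tested.

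Upstream sequence was in the RefSeq table for 25 of the 29 members, and among their windows that of Hes5 was the only one with 2 matches to the RBPJ core. It is shown for that reason and because Hes5 had the largest within-group SD of log2 CPM of the 7 Notch genes. RBPJ binds the core TGGGAA, and the 250 bases before the Hes5 start site (GRCm38.p6, chr4:154960673-154960922, plus strand) hold it on both strands, in capitals.
Hes5: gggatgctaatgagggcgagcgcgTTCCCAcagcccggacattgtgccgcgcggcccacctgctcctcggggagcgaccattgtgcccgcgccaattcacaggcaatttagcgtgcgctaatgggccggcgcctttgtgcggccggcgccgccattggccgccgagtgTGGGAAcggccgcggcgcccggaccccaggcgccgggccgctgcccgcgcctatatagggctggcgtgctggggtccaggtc

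One match, read as TTCCCA, begins 226 bases before the start site and the other, TGGGAA, 82 bases before it. Over 32851 such windows of 250 bases, 21.6% held this core on either strand, and of the 30 windows of the members 5 did, those of Hes5, Id4, Nr2e1, Prox1 and Sox4. The half-site AGGTCA, which retinoid and other nuclear receptors bind in pairs, occurred in 14% of all windows and in 3 of the 30 member windows, those of Sox2, Dll1 and Sox4. These stretches around the half-site, in capitals and on the gene's strand (read as TGACCT in Sox2), are shown because retinoid X receptors are the target of bexarotene. They lie at chr3:34649745-34649776 (plus strand), chr17:15375907-15375952 (minus strand) and chr13:28953836-28953881 (minus strand) of GRCm38.p6. The search was for the letters alone, and neither motif shares bases with the other.
Sox2: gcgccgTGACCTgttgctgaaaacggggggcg
Dll1: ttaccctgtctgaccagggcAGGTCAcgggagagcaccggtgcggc
Sox4: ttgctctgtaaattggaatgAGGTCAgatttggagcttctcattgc

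None of Sox2, Dll1 and Sox4 had a log2 fold change beyond its error (0.08 ± 0.16, 0.18 ± 0.27 and -0.02 ± 0.15, SE, in that order).

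Among the Notch ligands, Jag1 had the highest log2 fold change of the members with a mean of at least 1 CPM. Jag1, the ligand of vessels and some glia, was at 7.55, 4.38, 6.44 and 5.10 CPM in bexarotene replicates 1 to 4 and at 3.93, 4.26, 5.36 and 2.56 CPM in vehicle replicates 1 to 4. All 4 bexarotene libraries lay above 3 of the 4 vehicle libraries, and vehicle replicate 3 exceeded bexarotene replicates 2 and 4. Jag1 had a log2 fold change of 0.54 ± 0.25 (SE; unadjusted p 0.0527 and adjusted p 0.589 in edgeR; two-sided exact permutation p 0.114). The difference was 0.60 in replicates 1 and 3 and 0.51 in replicates 2 and 4. Dll1, the Delta-type ligand of neural precursors, was at 4.23 to 8.78 CPM with bexarotene and 3.53 to 6.92 CPM with vehicle, with an adjusted p of 0.906 in edgeR.

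The receptors had narrower intervals. Notch1, the main receptor of neural stem cells and endothelium, was at 24.9, 25.1, 22.3 and 26.3 CPM in bexarotene replicates 1 to 4 and at 21.8, 25.8, 24.5 and 30.4 CPM in vehicle replicates 1 to 4. Its log2 fold change was -0.06 ± 0.11 (SE; adjusted p 0.928 in edgeR), with a 95% interval from -0.30 to 0.19. Notch2, the receptor of quiescent stem cells and glia, was at 15.4 ± 2.52 and 13.99 ± 2.88 CPM (SD, n = 4), with a 95% interval from -0.23 to 0.50.

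The 3 target repressors had different spreads. Hey1, a repressor that works with Hes proteins, varied least of all members: it had 47.1, 41.1, 45.4 and 42.9 CPM in bexarotene replicates 1 to 4 and 42.6, 40.5, 47.0 and 46.7 CPM in vehicle replicates 1 to 4. The highest library was 1.16 times the lowest. Its log2 fold change was -0.0024 ± 0.08 (SE; adjusted p 0.998 in edgeR), and its 95% interval, from -0.18 to 0.18, was the narrowest of the 29. Hes1, the repressor whose level oscillates in progenitors, averaged 7.97 ± 1.48 CPM with bexarotene against 7.48 ± 2.04 CPM with vehicle (SD, n = 4). Its adjusted p was 0.945 in edgeR.

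Hes5, the Notch target with the 2 separate matches shown above, was at 31.2, 13.5, 28.2 and 12.7 CPM in bexarotene replicates 1 to 4. In vehicle replicates 1 to 4 it was at 11.1, 14.7, 22.7 and 15.4 CPM. Bexarotene replicates 1 and 3 were the highest of the series, and bexarotene replicates 2 and 4 were within the vehicle range. Its log2 fold change was 0.42 ± 0.34 (SE; adjusted p 0.79 in edgeR), with 0.89 in replicates 1 and 3 and -0.20 in replicates 2 and 4. Without bexarotene replicate 1 the log2 fold change of Hes5 was 0.18, and without vehicle replicate 3 it was 0.64.

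Outside the members, 36 further Notch pathway genes were tested and 0 were called in either direction by edgeR, with a median log2 fold change of -0.0051. At an unadjusted p below 0.05 there were 1 higher and 2 lower, against 8.77% of all genes. The libraries separated without overlap for 1 higher and 2 lower, against 5.77% of all genes. The smallest p were those of Itch and Dll3. Itch, a ubiquitin ligase that acts on Notch and on other substrates, averaged 36.7 ± 1.98 CPM with bexarotene against 46.2 ± 4.63 CPM with vehicle (SD, n = 4), with no overlap, a log2 fold change of -0.33 ± 0.09 (SE) and an adjusted p of 0.392. Dll3, a ligand that blocks Notch within its own cell, was at 1.40 ± 0.431 and 2.16 ± 0.207 CPM (SD, n = 4), again with no overlap and an adjusted p of 0.576.

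The Id genes had values of either sign. Id1, which is strong in endothelium, was at 21.7, 10.7, 16.2 and 11.2 CPM in bexarotene replicates 1 to 4 and at 10.1, 15.97, 10.97 and 8.56 CPM in vehicle replicates 1 to 4. Id3, found in vessels and astrocytes, was at 38.2, 25.4, 33.0 and 22.1 CPM and at 17.9, 26.9, 25.9 and 27.4 CPM in the same order. Both were highest in bexarotene replicates 1 and 3, and neither passed the test, with log2 fold changes of 0.39 ± 0.26 and 0.27 ± 0.19 (SE) and adjusted p of 0.738 and 0.749 in edgeR. Replicates 1 and 3 differed by 0.83 for Id1 and 0.72 for Id3, and replicates 2 and 4 by -0.10 and -0.20. Without bexarotene replicate 1 the log2 fold changes were 0.15 for Id1 and 0.13 for Id3, and with the length and GC offset they were 0.19 and 0.11. Leaving out other libraries raised them, to 0.60 for Id1 without vehicle replicate 2 and 0.39 for Id3 without bexarotene replicate 4.

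Id2, the most abundant member per length and a gene of cortical neurons, had the opposite sign. Levels were 71.7, 84.9, 79.8 and 85.6 CPM in bexarotene replicates 1 to 4 and 73.0, 124, 96.9 and 105 CPM in vehicle replicates 1 to 4. Vehicle replicate 1 lay inside the bexarotene range and the other 3 vehicle libraries lay above it. Id2 had a log2 fold change of -0.31 ± 0.14 (SE; unadjusted p 0.0565 and adjusted p 0.593 in edgeR). The value was -0.18 without vehicle replicate 2 and -0.43 without vehicle replicate 1. Id4, an astrocyte-enriched member, was at 60.4 ± 14.1 and 64.0 ± 12.6 CPM (SD, n = 4).

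Bmp4, a ligand that induces Id genes and favours glial fate, was low, at 2.18 to 4.28 CPM with bexarotene and 2.09 to 3.10 CPM with vehicle, with an adjusted p of 0.886 in edgeR. Of 25 other BMP pathway genes tested, 0 were called by edgeR, and the median log2 fold change was -0.05. An unadjusted p below 0.05 was found for 3 higher and 2 lower genes, against 8.77% of all genes. Fst, a secreted antagonist of activin and BMP ligands, had the smallest p (log2 fold change -1.17 ± 0.43, adjusted p 0.516), followed by the receptor gene Bmpr2 (-0.43 ± 0.17, adjusted p 0.538).

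Markers of several cell types, like Id1, Id3, Hes5 and Nes, had mostly positive differences in replicates 1 and 3 and mostly negative ones in replicates 2 and 4. The 12 endothelial markers summed to 224 to 288 CPM under bexarotene, with replicate 1 highest, and to 175 to 259 CPM under vehicle, with replicate 1 lowest. Within replicates 1 and 3 all 12 had a positive difference (median 0.46), and within replicates 2 and 4 there were 4 of 12 (median -0.10). The 8 pericyte and smooth muscle markers had medians of 0.58 and -0.06. The 12 astrocyte markers summed to 4461 to 5016 CPM with bexarotene and 4316 to 5666 CPM with vehicle, and 10 and then 3 of the 12 were positive (medians 0.19 and -0.10). Of 10 interneuron markers 8 and then 2 were positive (medians 0.30 and -0.27), and of 7 markers of oligodendrocyte precursors 6 and then 2 (medians 0.14 and -0.11). None of these 5 lists had a marker at 0 in any library, and their part in the values of the members was not tested. Not all lists had this order. Of 14 microglia markers 14 and then 14 were positive, and of 8 oligodendrocyte markers 8 and then 6. Of 12 striatum markers 12 and then 8 were positive, and of 9 markers of cortical excitatory neurons 2 and then 2.

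The Wnt ligands overlapped between treatments, Wnt7b fully and Wnt7a in part. Wnt7a was at 15.4, 7.30, 14.5 and 7.08 CPM in bexarotene replicates 1 to 4 and at 11.3, 6.39, 8.69 and 12.7 CPM in vehicle replicates 1 to 4. Wnt7b was at 29.7, 37.7, 28.97 and 35.2 CPM and at 24.3, 22.0, 41.7 and 46.7 CPM in the same order, so that all bexarotene values lay inside the vehicle range. Both ligands are known for building the blood-brain barrier. Their log2 fold changes were 0.18 ± 0.31 and -0.03 ± 0.24 (SE), with adjusted p of 0.92 and 0.989 in edgeR.

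Of 38 other Wnt pathway genes tested, 0 were called by edgeR, with 3 higher and 3 lower at an unadjusted p below 0.05 (8.77% of all genes). Separation without overlap was found for 1 of them, against 5.77% of all genes. Fzd3, a receptor of axon growth, averaged 63.2 ± 10.3 CPM with bexarotene against 82.1 ± 4.62 CPM with vehicle (SD, n = 4), without overlap, with a log2 fold change of -0.38 ± 0.11 (SE) and an adjusted p of 0.445. Tcf7, a DNA-binding partner of beta-catenin, had a log2 fold change of 0.79 ± 0.28 (SE; adjusted p 0.506). Of 32 other neurogenesis genes tested, 0 were called, and 1 was higher and 1 lower at an unadjusted p below 0.05 (8.77% of all genes). These were Vim, the filament gene of glia and vessels (0.36 ± 0.13, adjusted p 0.516), and Lhx2, a factor of cortical progenitors and neurons (-0.27 ± 0.08, adjusted p 0.427), and the libraries separated without overlap for Lhx2. Of 13 markers of dividing cells tested, 0 were called. The 15 such markers in the table summed to 36.9 to 38.3 CPM with bexarotene and 31.8 to 39.8 CPM with vehicle, with Bub1 at 0 in all vehicle libraries and Ccnb1 at 0 in vehicle replicate 2.

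**Figure D4:**
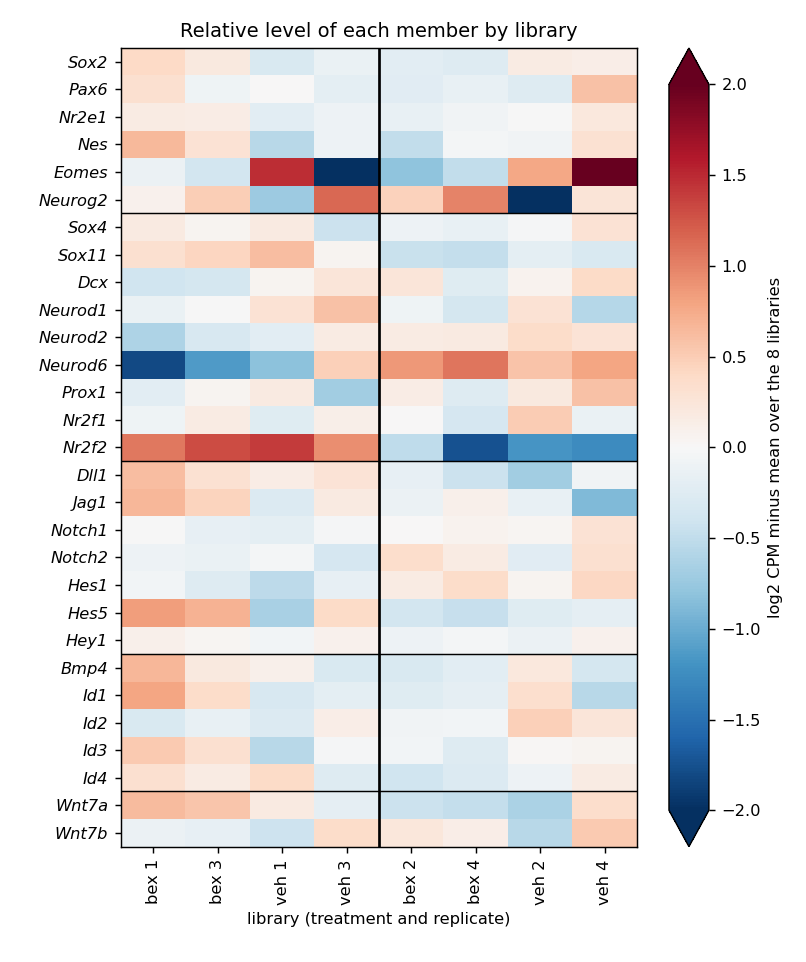
Log2 CPM of each member minus its mean over the 8 libraries, with replicates 1 and 3 left of the vertical line and replicates 2 and 4 right of it, and horizontal lines between the roles. Red marks libraries above the mean: Nr2f2 is red in all 4 libraries on the left, and Hes5, Id1, Id3, Nes and Wnt7a are red in bexarotene replicates 1 and 3.

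The signs of the members' differences were unlike in the 2 sets of replicates, a split looked at after the values were seen and not shown by the interaction test given after it. Within replicates 1 and 3, 23 of 29 had a positive log2 difference (53.2% of all genes did), with a median of 0.18. Within replicates 2 and 4, 8 of 29 were positive (51.1% of all genes), with a median of -0.20. The medians over all genes were 0.03 and 0.0055. For 5 members the libraries separated without overlap in opposite directions in the 2 sets of replicates, as they did for 8.66% of all genes. Of these, 4 (Sox2, Nr2e1, Hes5 and Id3) were higher with bexarotene in replicates 1 and 3 and lower in replicates 2 and 4, an order found in 4.54% of all genes, and Neurod6 had the reverse order. By contrast, Dcx, Neurod1, Neurod2 and Id2 had a negative difference in both sets, and Dll1, Jag1, Notch2, Hes1, Nr2f2 and Neurog2 a positive one.

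An interaction between treatment and the 2 sets of replicates, fitted in edgeR after these values were seen, had an adjusted p below 0.05 for 0 of 29 members and for 0% of all genes. At an unadjusted p below 0.05 there were 8 members (Sox2, Nr2e1, Nes, Neurod6, Hes5, Id1, Id3 and Wnt7a), against 13.3% of all genes. Sox2 had the smallest value, with an interaction of 0.89 on the log2 scale, an unadjusted p of 1.89e-04 and an adjusted p of 0.108. Each set held only 2 libraries per treatment, 3 of the 4 libraries in replicates 1 and 3 had the high striatum markers, and the vehicle libraries of the 2 sets differed in Xist and Y-linked genes. Their part in these differences was not tested.

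**Figure D5:**
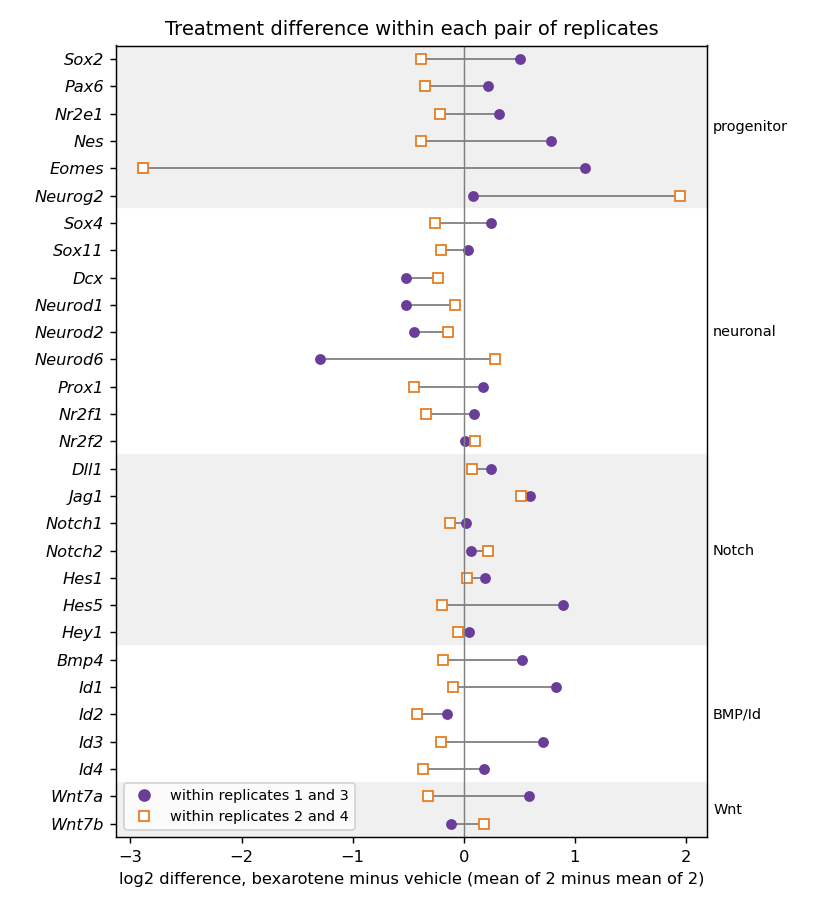
Mean log2 CPM difference, bexarotene minus vehicle, within replicates 1 and 3 (filled circles) and within replicates 2 and 4 (open squares) for each member, joined by a line. Most circles lie right of zero and most squares left of it; Jag1 has both near 0.5 to 0.6, and Nr2f2 has both near zero.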

How the data were processed

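The authors deposited whole-number read counts by RefSeq transcript, with unequal totals, and the submitters' processing notes name build mm9 and edgeR. The aligner, counter, annotation and strand setting: not given in the sources used here. A gene's reads cannot be told apart from those of an overlapping antisense gene. Columns were tied to samples by their descriptions, groups and replicate numbers by titles, and 0 value columns were left out.

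Of 28644 rows, 21285 passed edgeR's default filter and were fitted together (edgeR 4.0.16, R 4.3.3; TMM, robust dispersions, quasi-likelihood F test, group as the only term), standing for 16069 genes at 1 row each. Standard errors come from the F statistic. CPM is relative to tested rows times the TMM factor, and log2 CPM used a prior count of 2. Of the members, 24 had 1 row and 5 had several; Nr2f2's other row held at least 77.3% of the counts of the one used. DESeq2 1.42.0 was an alternative, besides RLE factors, no filter, 1 row per gene, each library left out, a replicate block, and an offset for transcript length and GC content (128 tested rows had no length and kept an offset of zero). The fit was tested on simulated data first.

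Libraries that share a number in their titles deviated together from their group means: across 11601 genes the correlation was 0.50, 0.30, 0.24 and 0.32 (replicates 1 to 4), each above 0.1, which meets the level for pairs. The tests beside the members are unpaired, and the replicate number enters only in the fit with the replicate block. Several other cross-group correlations were as high, such as 0.56 between bexarotene replicate 3 and vehicle replicate 1 and 0.38 between bexarotene replicate 4 and vehicle replicate 2. The correlations alone therefore do not show that libraries were paired by number.

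The members and lists were chosen with earlier results of these data known. Named genes outside the members are the 2 with the smallest p of each pathway list, and any other is said to be chosen after its values were seen or is a marker of a fixed list. Promoter sequences are RefSeq's, for GRCm38.p6. One gene of the marker lists is not reported here by name.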

Additional observations from a re-analysis of the deposited data

Results flagged for a closer look

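In 5 members both bexarotene libraries lay on one side of both vehicle libraries within replicates 1 and 3 and on the other side within replicates 2 and 4. The log2 differences were 0.51 and -0.38 for Sox2, 0.32 and -0.21 for Nr2e1, 0.89 and -0.20 for Hes5, 0.72 and -0.20 for Id3, and -1.30 and 0.28 for Neurod6. The interaction did not pass in edgeR after adjustment over all genes, with adjusted p of 0.108, 0.273, 0.308, 0.191 and 0.309 in that order.

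Id3 in vehicle replicate 1, at 17.9 CPM, lay far below the other 3 vehicle libraries, which were at 25.9 to 27.4 CPM. Such a gap is met by chance in about 1 in 20 groups, and 58 groups (29 genes in 2 treatments) were looked at.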

How the results depend on the processing

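The count of members called was 0 in all 15 alternatives, and the smallest adjusted p of any member in any of them was 0.302. Over all genes DESeq2 called 97, against 1 in edgeR, and leaving out 1 library gave 1 to 2. The replicate block changed no call; the median of the members was 0.03 with it. Of 435 values of single members, 391 kept their sign and 44, in 16 members, did not. The log2 fold changes that turned were, without a low-count filter, Hey1 (0.0014); with the replicate block, Wnt7b (0.030); with the length and GC offset, Sox4 (0.012), Sox11 (0.086), Hes1 (-0.0017) and Id4 (0.019); and with that offset and the block, Sox4 (0.023), Sox11 (0.041) and Id4 (0.00020). Leaving out 1 library each gave -0.056 to 0.18 for Sox2, -0.59 to 0.17 for Neurod6, -0.40 to 0.59 for Nr2f2, -0.024 to 0.33 for Dll1, -0.026 to 0.33 for Bmp4, -0.016 to 0.35 for Wnt7a, -0.19 to 0.17 for Wnt7b, -0.15 to 0.081 for Sox4, -0.24 to 0.16 for Sox11, -0.037 to 0.034 for Hey1, -0.21 to 0.037 for Id4, -0.046 to 0.27 for Hes1, -0.0097 to 0.14 for Nr2e1, -0.24 to 0.032 for Nr2f1, -0.22 to 0.14 for Pax6 and -0.13 to 0.039 for Notch1. The causes were not tested. Neurog2 and Eomes had 0 counts in 1 library each. For Eomes vehicle replicates 1, 2 and 4 held 66, 55 and 440 counts. The part of depth in these zeros was not tested.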

Other observations

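The genes nearest to Nr2f2 across the 8 libraries, by the root mean square difference of log2 CPM centred on each gene's mean and among genes with a mean of at least 1 CPM, were Arhgap6 (0.24), Stk32b (0.28) and Filip1 (0.35). Arhgap6 was at 22.2, 6.11, 26.6 and 3.10 CPM in bexarotene replicates 1 to 4 and at 27.9, 2.84, 20.04 and 3.53 CPM in vehicle replicates 1 to 4, so it was also high in replicates 1 and 3 of both groups. For Neurod6 the nearest were 3110035E14Rik (0.28), Plin4 (0.29) and Hs3st2 (0.31), and each was lowest in bexarotene replicates 1 and 3 and vehicle replicate 1. For Eomes the nearest were Th (1.07), Bub1b (1.17) and Mid1 (1.30), all at larger distances. Th, the dopamine-synthesis enzyme tyrosine hydroxylase, was highest in vehicle replicate 4 at 9.38 CPM and lowest in vehicle replicate 3 at 0.466 CPM. Bub1b was also highest in vehicle replicate 4 (2.93 CPM), but Mid1 was highest in vehicle replicate 2 (103.9 CPM). This measure was chosen after the data were seen.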
